A study of Mus musculus with 39 samples.

Results

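The colon was compared with the part of the small intestine labelled duodenum/jejunum within mice of the inbred strain C57BL/6J. The comparison used 14 of the 39 libraries of the study, 1 colon and 1 duodenum/jejunum library from each of 7 mice, and it paired the libraries by the mouse number in the labels. The study measured total RNA, depleted of ribosomal RNA, in the colon, ileum and duodenum/jejunum of 7 C57BL/6J and 6 BALB/cJ mice. The labels name no transgene, deletion or treatment in any mouse, and they give no sex, age, diet or batch. They also do not say where along each segment the tissue was taken, or how much of the gut wall it held. Of 34574 entries with a usable name, 15774 reached 1 or more TPM (a transcript level corrected for transcript length and for the total of the library) in 6 or more of the 14 libraries and were tested.

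As background, the duodenum and jejunum digest food with enzymes on the brush border of their enterocytes and absorb sugars, peptides, fat, iron and vitamins. Paneth cells at the base of their crypts release antimicrobial peptides. The colon recovers salt and water, carries a thick mucus layer made by goblet cells, and holds most of the gut's bacteria. It has no villi, and in the healthy mouse it has few or no Paneth cells.

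Most genes differed between the tissues, and more of them were higher in colon. In the paired limma fit on log2(TPM + 1), 10612 of the 15774 genes (67.3%) had a Benjamini-Hochberg adjusted p under 0.05. Of these, 8126 (51.5%) were higher in colon and 2486 (15.8%) were higher in duodenum/jejunum. A difference of at least 2-fold on that scale was found for 1978 genes (12.5%) higher in colon and 1112 (7.05%) higher in duodenum/jejunum. For 6800 genes (43.1%) the 7 colon values and the 7 duodenum/jejunum values did not overlap. The median difference over all genes tested was 0.30 on the log2 scale towards colon, and it was -0.01 after the libraries were rescaled by size factors of the RLE (relative log expression) method. With RLE, 9203 genes of 15729 (58.5%) were called, 4560 (29%) higher in colon and 4643 (29.5%) higher in duodenum/jejunum. At 2-fold the RLE counts were 1231 (7.83%) and 1514 (9.63%). The excess of genes higher in colon therefore depended on the scaling, and the small differences below are read against the median of 0.30. Counts of called genes in the lists below are likewise read against these shares of all genes, 51.5% higher in colon and 15.8% higher in duodenum/jejunum as deposited. A tested gene under 1 TPM in all libraries of 1 tissue passed the filter only through the other tissue. The direction of such a gene was set by the filter, in every list below.

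**Figure D1:**
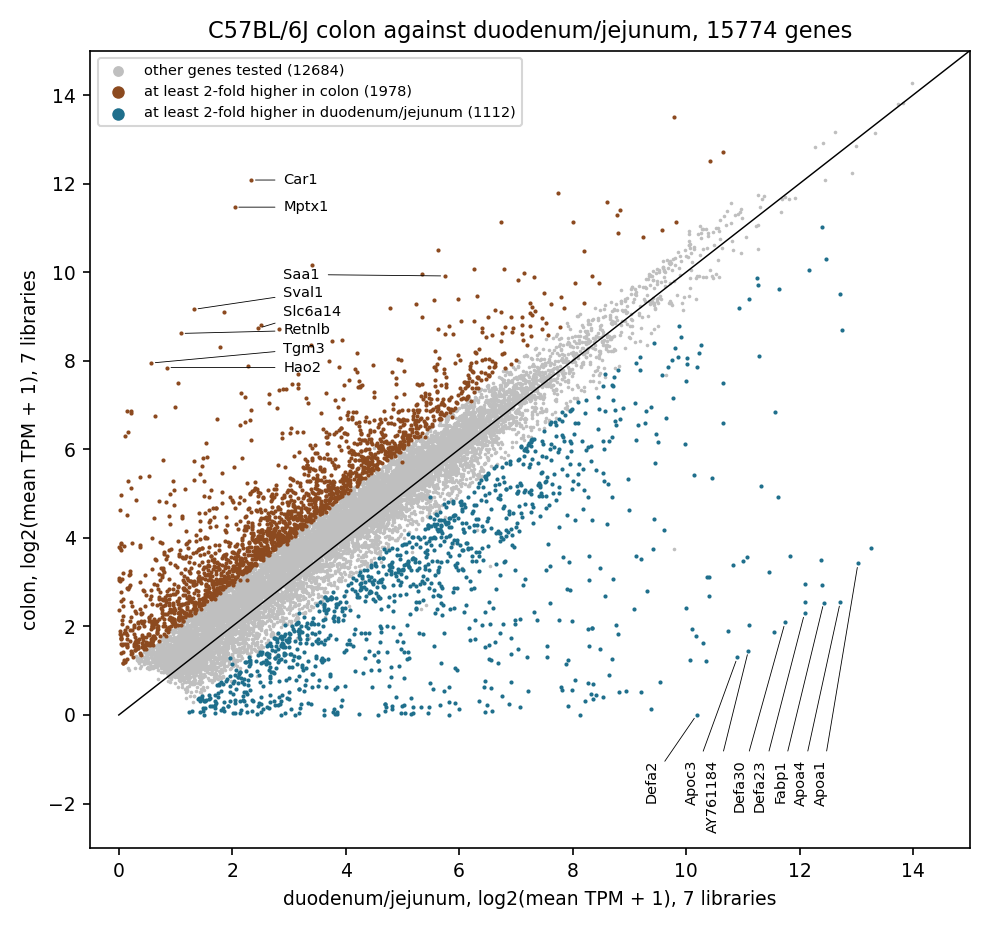
Mean level of each of the 15774 genes tested in duodenum/jejunum (horizontal axis) and colon (vertical axis), both as log2(mean TPM + 1) over 7 libraries, with the line of equal level. The 1978 genes at least 2-fold higher in colon lie above the line, the 1112 at least 2-fold higher in duodenum/jejunum lie below it, and the 16 genes with the largest differences are named.

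Most marker genes followed the tissue labels, with the exception of 1 mouse. All 20 colon marker genes were at least 2-fold higher in colon, and 23 of 24 duodenum and jejunum marker genes were at least 2-fold higher in duodenum/jejunum. The exception among the 24 was Slc40a1, the iron exporter ferroportin, which was higher in colon by 1.29 (adjusted p = 0.0136) and by 0.94, no longer called, with RLE. Of the colon markers, 7 stayed under 1 TPM in all duodenum/jejunum libraries, and 5 of the duodenum and jejunum markers in all colon libraries. These passed the filter through the tissue where they were high, so their direction was set by it. The marker lists were also chosen with earlier results of these data known. In mouse 2, however, the library labelled duodenum/jejunum held transcripts of ileal enterocytes. Fabp6, the ileal bile acid binding protein, stood at 6111 TPM there and between 3.12 and 32 TPM in the other 6 duodenum/jejunum libraries. Slc10a2, the apical bile acid transporter, stood at 86.7 TPM in mouse 2 and at 2.22 to 7.25 TPM in the others. The same library also held the duodenal transcripts Tmprss15 (enteropeptidase, which activates trypsinogen) at 39.2 TPM and Gkn3 (gastrokine 3) at 574 TPM. The library labelled ileum from mouse 2 also stood apart. Its Fabp6 was at 22.1 TPM against 3766 to 8189 TPM in the other 6 C57BL/6J ileum libraries. Its Tmprss15 was at 51.2 TPM against at most 0.0304 TPM. Gkn3, however, was at only 3.19 TPM in that library, against 0.165 to 1.16 TPM in the other 6. How these 2 libraries came to differ from their labels was not tested. Without mouse 2, 10081 of 15529 genes (64.9%) were called, 7557 (48.7%) higher in colon and 2524 (16.3%) higher in duodenum/jejunum, with 1864 (12%) and 1145 (7.37%) at 2-fold. Of the genes called at 2-fold with all mice, 1815 of 1978 (91.8%) and 1080 of 1112 (97.1%) were also called at 2-fold without mouse 2, and 0 were called in the opposite direction. With both RLE and mouse 2 left out, 8630 genes (55.6%) were called, 4298 (27.7%) higher in colon and 4332 (27.9%) higher in duodenum/jejunum, with 1221 (7.87%) and 1515 (9.77%) at 2-fold.

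The duodenum/jejunum libraries also differed in genes of the proximal duodenum. Tff2, a trefoil peptide of Brunner's glands and stomach, stood at 2.15 TPM in mouse 3, at 154 TPM in mouse 1 and between 1296 and 2230 TPM in the other 5 mice. The Y-linked gene Ddx3y, an RNA helicase, stood at 31.9 and 28.4 TPM in the colon of mice 6 and 7 and at 26 and 23.5 TPM in their duodenum/jejunum. It did not pass 0.652 TPM in either tissue of the other 5 mice, so the colon and duodenum/jejunum libraries of the same number matched in this gene. Every result is given over all 7 mice, and the value without mouse 2 is added where it differs in call or by more than 1.5 times.

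**Figure D2:**
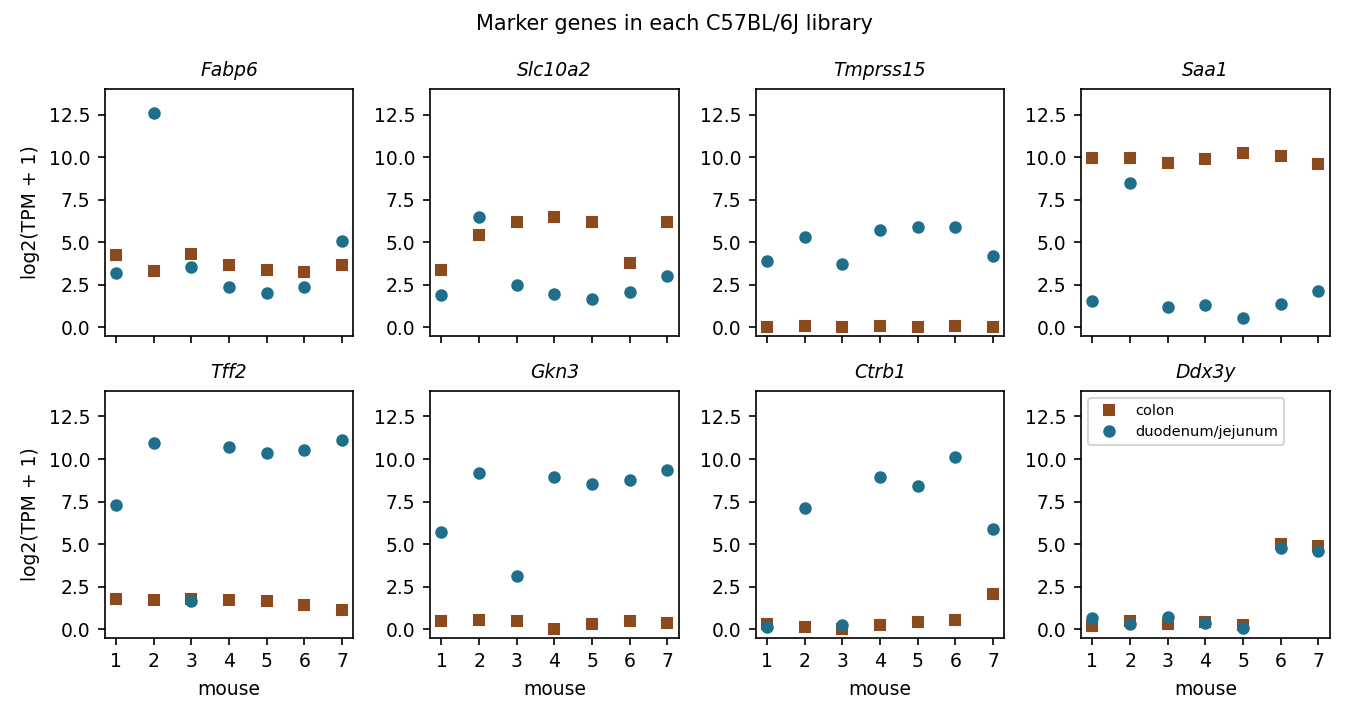
Levels of 8 genes as log2(TPM + 1) by mouse number in colon (squares) and duodenum/jejunum (circles). Mouse 2 stands apart in Fabp6, Slc10a2 and Saa1 in duodenum/jejunum, mouse 3 is lowest in Tff2 and Gkn3, mice 1 and 3 are low in Ctrb1, and Ddx3y is high in both tissues of mice 6 and 7.

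The genes with the largest differences are named in full, 8 in each direction among genes with a mean of at least 5 TPM in 1 tissue. In duodenum/jejunum they were Defa2, Apoa4, Defa23, Fabp1, Defa30, Apoc3, Apoa1 and AY761184, that is, 3 apolipoproteins, 1 fatty acid binding protein, 3 alpha-defensins and AY761184, a gene in the same cluster on chromosome 8. In colon they were Car1, Mptx1, Sval1, Slc6a14, Saa1, Retnlb, Tgm3 (a transglutaminase) and Hao2 (a hydroxyacid oxidase). RefSeq promoter sequences of GRCm38.p6 (250 bases before to 50 after the start) were matched for 12 of these 16 genes. They were searched on both strands for GTTAAT (part of the HNF1 site), AGATAA (a site of the GATA factors), TTTATG (CDX factors) and CAAAGTC (part of the HNF4 site). Of the 12 promoters, 6 held none of the 4 strings and 3 held strings of more than 1 kind, and no matches overlapped one another in these 3. Those 3 are printed 5′ to 3′ on the strand of the gene because they belong to leading genes of both tissues, with the matches in capitals, and only up to the earlier of the RefSeq and GENCODE starts. Fabp1 is at chr6:71199629-71199826 on the + strand, Mptx1 at chr1:174330268-174330517 on the + strand, and Hao2 at chr3:98893240-98893480 on the - strand.
Fabp1: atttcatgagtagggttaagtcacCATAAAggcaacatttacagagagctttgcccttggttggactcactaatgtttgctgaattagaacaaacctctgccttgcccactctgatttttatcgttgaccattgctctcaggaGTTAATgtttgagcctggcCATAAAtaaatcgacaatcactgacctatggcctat
Mptx1: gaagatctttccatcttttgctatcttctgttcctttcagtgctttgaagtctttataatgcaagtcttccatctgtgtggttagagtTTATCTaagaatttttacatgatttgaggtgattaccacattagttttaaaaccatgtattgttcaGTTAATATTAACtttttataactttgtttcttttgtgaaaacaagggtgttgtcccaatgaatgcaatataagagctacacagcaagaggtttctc
Hao2: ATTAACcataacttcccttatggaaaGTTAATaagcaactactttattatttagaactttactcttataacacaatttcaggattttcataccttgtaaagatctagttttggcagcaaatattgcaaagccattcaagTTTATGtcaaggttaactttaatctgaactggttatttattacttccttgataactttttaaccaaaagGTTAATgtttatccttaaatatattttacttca
The Fabp1 stretch held GTTAAT once and the reverse complement of TTTATG at 2 places. The Mptx1 stretch held GTTAAT followed directly by its reverse complement, and the reverse complement of AGATAA. The Hao2 stretch held GTTAAT on either strand at 3 places and TTTATG once. Over windows of the same 300 bases, GTTAAT occurred in 7.20% of the 27025 RefSeq promoters, in 4.72% of the 10963 promoters of genes tested, in 5.10% of the 1392 promoters of genes at least 2-fold higher in colon and in 8.89% of the 686 of genes at least 2-fold higher in duodenum/jejunum. In the same order, CAAAGTC occurred in 4.36%, 4.04%, 3.81% and 9.48%, AGATAA in 11.4%, 7.10%, 6.68% and 14%, and TTTATG in 12.1%, 6.95%, 7.40% and 11.2%. These shares are descriptions of letters in the windows, not of bound sites.

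In duodenum/jejunum the leading transcripts were those of chylomicron assembly and of Paneth cells. Apoa4 (chromosome 9, 46240696-46243459, GRCm38), an apolipoprotein of chylomicrons, ranged from 2597 to 8388 TPM with a median of 7410 in duodenum/jejunum, and from 3.99 to 6.00 TPM with a median of 4.66 in colon. The groups did not overlap, the ratio of mean TPM was 1387-fold, and the log2 difference was -10.08 (SE 0.19, limma adjusted p = 8.1e-11). Fabp1 (chromosome 6, 71199827-71205023), the liver-type fatty acid binding protein, ranged from 3207 to 7576 TPM with a median of 5386 in duodenum/jejunum and from 4.18 to 5.64 TPM in colon, a difference of -9.83 (SE 0.18, adjusted p = 8.4e-11). In colon the leading transcript was Car1 (chromosome 3, 14766216-14808368), a cytosolic carbonic anhydrase, which ranged from 2269 to 5725 TPM with a median of 5298 in colon and from 1.72 to 9.20 TPM in duodenum/jejunum. Its difference was 9.80 (SE 0.35, adjusted p = 7.3e-09). Saa1 (chromosome 7, 46740497-46742980), a serum amyloid A protein made by gut epithelium, ranged from 783.6 to 1201 TPM in colon. In duodenum/jejunum it had a median of 1.6 TPM, and mouse 2 alone reached 358.6 TPM. The difference was 7.53 (SE 0.82, adjusted p = 2.4e-05) with mouse 2 and 8.54 (adjusted p = 5.2e-09) without it. Slc6a14, an amino acid transporter, ranged from 378.2 to 449.8 TPM in colon and had a median of 0.474 TPM in duodenum/jejunum, where mouse 2 reached 28.9 TPM. Sval1, Tgm3 and Hao2 had medians of 507.4, 252 and 222.2 TPM in colon and of 1.157, 0.426 and 0.631 TPM in duodenum/jejunum, with no overlap. Defa23, Defa30 and AY761184 had medians of 4559, 3758 and 2105 TPM in duodenum/jejunum and of 2.89, 3.37 and 1.87 TPM in colon, again with no overlap.

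Most genes for the digestion and absorption of carbohydrate, peptides and fat were higher in duodenum/jejunum. Of 18 carbohydrate genes tested, 17 were at least 2-fold higher in duodenum/jejunum and 0 were called higher in colon (median -4.49, against 0.30 for all genes). Of the 18, 5 stayed under 1 TPM in all colon libraries. These 5 passed the filter through duodenum/jejunum, so their direction was set by it. Lct (lactase) ranged from 316.7 to 1119 TPM in duodenum/jejunum and from 0.413 to 1.11 TPM in colon, a 1115-fold ratio of means. Sis (sucrase-isomaltase) ranged from 1197, in mouse 2, to 2518 TPM in duodenum/jejunum and from 3.18 to 16.6 TPM in colon. Treh (trehalase) and Slc2a2, the basolateral sugar transporter GLUT2, had ratios of 404.4 and 1171. The apical glucose transporter Slc5a1 differed less, with medians of 1088 TPM in duodenum/jejunum and 68.7 TPM in colon and a ratio of 14.88, and its groups did not overlap either. The carbohydrate gene that was not called was Galk1 (galactokinase) at -0.33 (adjusted p = 0.0512), which was called at -0.47 (adjusted p = 0.00126) without mouse 2. In bulk tissue, fewer cells of a type and less RNA per cell cannot be told apart.

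Of 29 genes for peptide digestion and amino acid transport, 23 were higher in duodenum/jejunum, 22 of them at least 2-fold, and 3 were higher in colon (median -3.29). The brush border peptidases Anpep and Mme had medians of 2153 and 451 TPM in duodenum/jejunum and of 10.3 and 1.33 TPM in colon, with no overlap. The peptide transporter Slc15a1 was present in both tissues, at 303.8 to 562.7 TPM in duodenum/jejunum and 58.6 to 101 TPM in colon, and differed by -2.41 (SE 0.15, adjusted p = 4.1e-07). The neutral amino acid transporter Slc6a19 ranged from 293.1 to 406.3 TPM in duodenum/jejunum and from 1.28 to 2.36 TPM in colon. Slc6a14, described above, was among the 3 that were higher in colon. Slc6a14 and Slc6a19, 2 members of 1 gene family, thus had opposite regional levels, and other members of the family are not reported here.

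Of 32 genes for fat absorption and chylomicrons, 29 were higher in duodenum/jejunum, 27 of them at least 2-fold, and 2 were higher in colon (median -3.91). Mttp, which loads lipid onto apolipoprotein B, ranged from 737 to 1343 TPM in duodenum/jejunum and from 2.41 to 3.16 TPM in colon. Apoa1 and Apoc3, which lie beside Apoa4 on chromosome 9 (46228580-46230466 and 46232933-46235636), had ratios of 858.9 and 1306. Fabp2, the intestinal fatty acid binding protein, stayed at 333.8 to 494.7 TPM in colon, so its ratio of 16.69 was far below that of Fabp1. Among the genes of bile acid uptake, the basolateral exporters Slc51a and Slc51b were higher in duodenum/jejunum by 2.40 and 1.54 on the log2 scale (adjusted p = 0.00028 and 0.00093), while the apical Slc10a2 was higher in colon by 2.56 (adjusted p = 0.0034) and by 3.16 (adjusted p = 0.00017) without mouse 2. Fabp6 was not called with all mice (-0.76, SE 1.15, adjusted p = 0.578) or without mouse 2 (0.66, adjusted p = 0.102).

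The genes for iron, vitamin and mineral uptake were divided. Of 30 tested, 19 were higher in duodenum/jejunum, 14 of them at least 2-fold, and 6 were higher in colon (median -1.0). Cubn, the receptor cubilin, and Rbp2, a cellular retinol binding protein, had ratios of 39.97 and 108 towards duodenum/jejunum. Cybrd1, a duodenal ferric reductase, overlapped between tissues, with medians of 6.15 and 1.78 TPM and a difference of -1.20 (SE 0.23, adjusted p = 0.00119). Trpm6, a magnesium channel, was instead higher in colon, at 30.5 to 43.7 TPM against 0.537 to 4.28 TPM (4.10, SE 0.21, adjusted p = 8.7e-08). S100g (calbindin-D9k, a calcium binding protein) ranged from 21.8 TPM, in mouse 3, to 1536 TPM in duodenum/jejunum and from 19.4 to 389.9 TPM in colon, and was not called (-1.54, SE 0.87, adjusted p = 0.143), but was called at -2.37 without mouse 3. The zinc importer Slc39a4 had medians of 106.8 TPM in colon and 105.7 TPM in duodenum/jejunum, and was not called (0.02, adjusted p = 0.811), but was called at -0.33 (adjusted p = 0.00263) with RLE.

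Transport of salt, acid and water showed the opposite pattern to nutrient absorption. Of 46 genes, 30 were higher in colon, 27 of them at least 2-fold, and 12 were higher in duodenum/jejunum, 8 of them at least 2-fold (median 1.61, and 1.26 with RLE). Aqp8, a water channel, ranged from 247.3 to 399.2 TPM in colon and from 0.724 to 4.68 TPM in duodenum/jejunum. Atp12a, the colonic proton-potassium ATPase, ranged from 59.2 to 102.4 TPM in colon and did not pass 0.177 TPM in duodenum/jejunum. The epithelial sodium channel subunits Scnn1b and Scnn1g had medians of 8.39 and 2.68 TPM in colon and of 0.157 and 0.0147 TPM in duodenum/jejunum. Hsd11b2, which protects the mineralocorticoid receptor from glucocorticoids, was higher in colon with a ratio of 38.86.

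Anion exchangers were divided by region. Slc26a3, the chloride-bicarbonate exchanger DRA, had medians of 498.8 TPM in colon and 123.4 TPM in duodenum/jejunum (2.08, SE 0.09, adjusted p = 3.7e-08). Slc26a6, another anion exchanger, had medians of 2.75 TPM in colon and 296 TPM in duodenum/jejunum (-6.40, SE 0.12, adjusted p = 1e-10). The sodium-proton exchanger Slc9a3 overlapped between the tissues and was not called (0.40, SE 0.18, adjusted p = 0.0649), but was called at 0.55 without mouse 1. Of 24 claudin and junction genes, 16 were higher in colon and 4 in duodenum/jejunum, but only 5 and 2 differed by at least 2-fold, and with RLE those counts were 2 and 3. Cldn8, a barrier-forming claudin, ranged from 38.5 to 70.9 TPM in colon and from 0.379 to 1.77 TPM in duodenum/jejunum. Cldn15, a cation pore-forming claudin, was higher in duodenum/jejunum, at 262.1 to 393.2 TPM against 110.6 to 130 TPM.

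Goblet cell genes were mostly higher in colon. Of 29 tested, 24 were higher in colon, 21 of them at least 2-fold, and 3 were at least 2-fold higher in duodenum/jejunum (median 2.52, and 2.17 with RLE). The latter count was 1 when any of mice 4, 5, 6 or 7 was left out. Their summed level ranged from 36990 to 40810 TPM in colon and from 12130 to 20800 TPM in duodenum/jejunum. Muc2 (chromosome 7, 141690340-141754693), the gel-forming mucin, ranged from 7280 to 14770 TPM with a median of 12990 in colon and from 466.2 to 1414 TPM with a median of 887.9 in duodenum/jejunum, and differed by 3.80 (SE 0.25, adjusted p = 6e-07). Retnlb, a resistin-like antibacterial protein, ranged from 173 to 745.2 TPM in colon and from 0.263 to 3.79 TPM in duodenum/jejunum. Other goblet cell genes did not follow Muc2. Tff3, the intestinal trefoil peptide, was not called (-0.15, SE 0.14, adjusted p = 0.366, and -0.50, adjusted p = 0.0313, with RLE), with medians of 2045 TPM in colon and 2152 TPM in duodenum/jejunum. Zg16, a lectin that binds gram-positive bacteria, was higher in colon by 0.49 (adjusted p = 0.00448) and was not called at 0.14 with RLE. Itln1 (intelectin) was higher in duodenum/jejunum, at 788.5 to 1788 TPM against 2.58 to 19.6 TPM.

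Of 40 membrane mucin and mucin glycosylation genes, 30 were higher in colon, 26 of them at least 2-fold, and 6 were higher in duodenum/jejunum, 2 of them at least 2-fold (median 1.63). B3gnt6, which makes the core 3 O-glycan, B3galt5, a galactosyltransferase, and Fut2, a fucosyltransferase, had medians of 26.3, 233.1 and 150.1 TPM in colon and of 0.740, 3.55 and 2.38 TPM in duodenum/jejunum. Gcnt4, a branching enzyme of O-glycans, was higher in duodenum/jejunum at 23.1 to 32.2 TPM against 1.53 to 4.29 TPM. The transcription factor Spdef, which drives goblet cell maturation, had medians of 113.9 TPM in colon and 13.7 TPM in duodenum/jejunum.

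Paneth cell genes showed a large difference in the other direction. Of 26 tested, 21 were at least 2-fold higher in duodenum/jejunum and 3 were at least 2-fold higher in colon (median -6.80). Their summed level ranged from 29610 to 54480 TPM in duodenum/jejunum and from 260.6 to 747.4 TPM in colon. Lyz1, the Paneth cell lysozyme, ranged from 2484 to 5211 TPM in duodenum/jejunum and from 8.30 to 13.3 TPM in colon. Defa24, an alpha-defensin, ranged from 6689 to 12780 TPM in duodenum/jejunum and from 8.35 to 20.2 TPM in colon. Defa2 ranged from 735.4 to 1829 TPM in duodenum/jejunum and was at or near 0 in colon, at no more than 0.00358 TPM. The alpha-defensin genes are near-identical copies among which the authors' read assignment could divide reads, so single members are uncertain.

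Antimicrobial and Reg lectin genes were divided between the tissues, 24 higher in colon and 11 higher in duodenum/jejunum of 38 tested, with 22 and 9 at 2-fold. The shares over all genes were 51.5% and 15.8%, and 12.5% and 7.05% at 2-fold. Reg3g, a lectin active against gram-positive bacteria, ranged from 786.8 to 8173 TPM in duodenum/jejunum and from 24 to 425.7 TPM in colon. Reg3b overlapped because the colon of mouse 4 reached 2902 TPM while the duodenum/jejunum started at 1284 TPM, and it differed by -3.68 (SE 0.48, adjusted p = 8.2e-05). Reg1 had medians of 1044 TPM in duodenum/jejunum and 2.43 TPM in colon. On the colon side stood Mptx1 (chromosome 1, 174330518-174332873), a mucosal pentraxin, at 1495 to 4707 TPM against 1.42 to 5.93 TPM (9.38, SE 0.09, adjusted p = 6.4e-12). Its paralogue Mptx2 had the reverse pattern, at 256.8 to 584.1 TPM in duodenum/jejunum and 0.384 to 1.34 TPM in colon. Reads shared by these copies could be divided between them. Pla2g2f, a secreted phospholipase, had medians of 21.7 TPM in colon and 4.95 TPM in duodenum/jejunum.

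Enteroendocrine genes were divided between the tissues. Of 28 enteroendocrine genes, 14 were higher in colon and 6 in duodenum/jejunum, with 9 and 3 at 2-fold and 6 and 6 with RLE (median 0.30, equal to that of all genes). The 3 were 5 when mouse 4 or mouse 7 was left out. Among all genes 51.5% were higher in colon and 15.8% in duodenum/jejunum, so the count of 14 was near the share of all genes. At 2-fold the shares of all genes were 12.5% and 7.05%, beside the 9 and 3 of 28 here. Gip, an incretin, ranged from 90.5 to 126.5 TPM in duodenum/jejunum and from 0 to 0.305 TPM in colon. Cck (cholecystokinin) and Ghrl (ghrelin) had ratios of 9.10 and 8.44 towards duodenum/jejunum. Insl5, an insulin-like peptide of colonic L cells, ranged from 73.6 to 176 TPM in colon and did not pass 0.304 TPM in duodenum/jejunum. Pyy (peptide YY) and Gcg (the precursor of GLP-1) had medians of 175.7 and 97.5 TPM in colon and of 6.41 and 27.5 TPM in duodenum/jejunum. Nts (neurotensin) was not called (-0.93, SE 0.39, adjusted p = 0.0538), but was called at -1.26 (adjusted p = 0.023) with RLE and at -1.08 to -1.16 without mouse 4, 5 or 7.

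The balance of tuft cell genes changed with the scaling. Of 21, 8 were higher in colon and 4 in duodenum/jejunum as deposited, and 2 and 8 with RLE. At 2-fold the counts were 2 and 1 (median 0.24, and -0.06 with RLE), and their summed level was 158.4 to 175 TPM in colon and 138.7 to 174 TPM in duodenum/jejunum. The count of 1 became 0 without mouse 1, 3 or 4, and with RLE the 2-fold counts were 1 and 3. Dclk1, a tuft cell kinase also made by enteric neurons, was higher in colon by 1.13 (adjusted p = 0.00012), and Trpm5, a taste transduction channel, was not called (0.13, adjusted p = 0.286). Of 23 stem cell and Wnt target genes, 13 were higher in colon, 9 of them at least 2-fold, and 6 were higher in duodenum/jejunum, 1 at least 2-fold. With RLE the 2-fold counts were 5 and 2, and the duodenum/jejunum count was also 2 without mouse 2, 4 or 5. That 1 was Olfm4 (chromosome 14, 79984081-80023139), a secreted glycoprotein of small intestinal crypt base cells, at 223.6 to 395.5 TPM in duodenum/jejunum and 0.260 to 0.576 TPM in colon (-7.83, SE 0.09, adjusted p = 7.7e-12). Lgr5, the receptor that marks crypt stem cells, had medians of 6.91 TPM in colon and 6.55 TPM in duodenum/jejunum and was not called (0.00, adjusted p = 0.982). Sox9 and Ephb3, a transcription factor and a receptor of the lower crypt, were higher in colon with ratios of 4.04 and 3.40. The tuft and stem cell counts stand beside shares over all genes of 51.5% higher in colon and 15.8% higher in duodenum/jejunum as deposited.

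Metabolic genes were divided by pathway. Of 70 genes of xenobiotic metabolism, 41 were higher in duodenum/jejunum, 30 of them at least 2-fold, and 22 were higher in colon, 16 of them at least 2-fold (median -0.47). The cytochrome P450 genes Cyp3a11 and Cyp2b10 had medians of 506.7 and 382.9 TPM in duodenum/jejunum and of 0.449 and 0.266 TPM in colon. Cyp2c55 was higher in colon, at 602.7 to 1424 TPM against 28.4 to 115.8 TPM. The alcohol dehydrogenase Adh6a ranged from 277.5 to 606.6 TPM in duodenum/jejunum and did not pass 0.670 TPM in colon, while the sulfotransferase Sult1c2 was higher in colon with a ratio of 15.75. Of the 74 listed genes, 11 stayed under 1 TPM in all colon libraries and 4 in all duodenum/jejunum libraries. Cyp3a11, Cyp2b10 and Adh6a were among the 11, so their direction was set by the filter. Of 38 genes of fatty acid oxidation and ketogenesis, 10 were higher in colon and 14 in duodenum/jejunum, with 5 and 9 at 2-fold. With RLE 5 were higher in colon and 27 in duodenum/jejunum, with 2 and 11 at 2-fold. Acot12, an acyl-CoA thioesterase, had medians of 0.138 TPM in colon and 50.2 TPM in duodenum/jejunum (-5.24, SE 0.17, adjusted p = 3.6e-09).

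Of 25 cholesterol synthesis genes, 21 were higher in colon and 1 in duodenum/jejunum (median 0.93). At 2-fold 11 were higher in colon, and with RLE 3, where 20 were still called higher in colon and 2 in duodenum/jejunum. Cyp51 and Fdft1, enzymes of the sterol pathway, differed by 1.48 and 1.48 (adjusted p = 2e-06 and 6.5e-08). Of 22 genes of steroid, arginine and purine metabolism, 10 were higher in colon and 9 in duodenum/jejunum (8 and 9 with RLE). The urea cycle and arginine enzymes differed in direction. Cps1 and Arg2 had medians of 310.8 and 357.3 TPM in duodenum/jejunum and of 7.17 and 9.60 TPM in colon, while Ass1 had medians of 7.57 TPM in duodenum/jejunum and 39.6 TPM in colon. Ada and Xdh, enzymes of purine breakdown, were higher in duodenum/jejunum with ratios of 56.37 and 8.86.

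**Figure D3:**
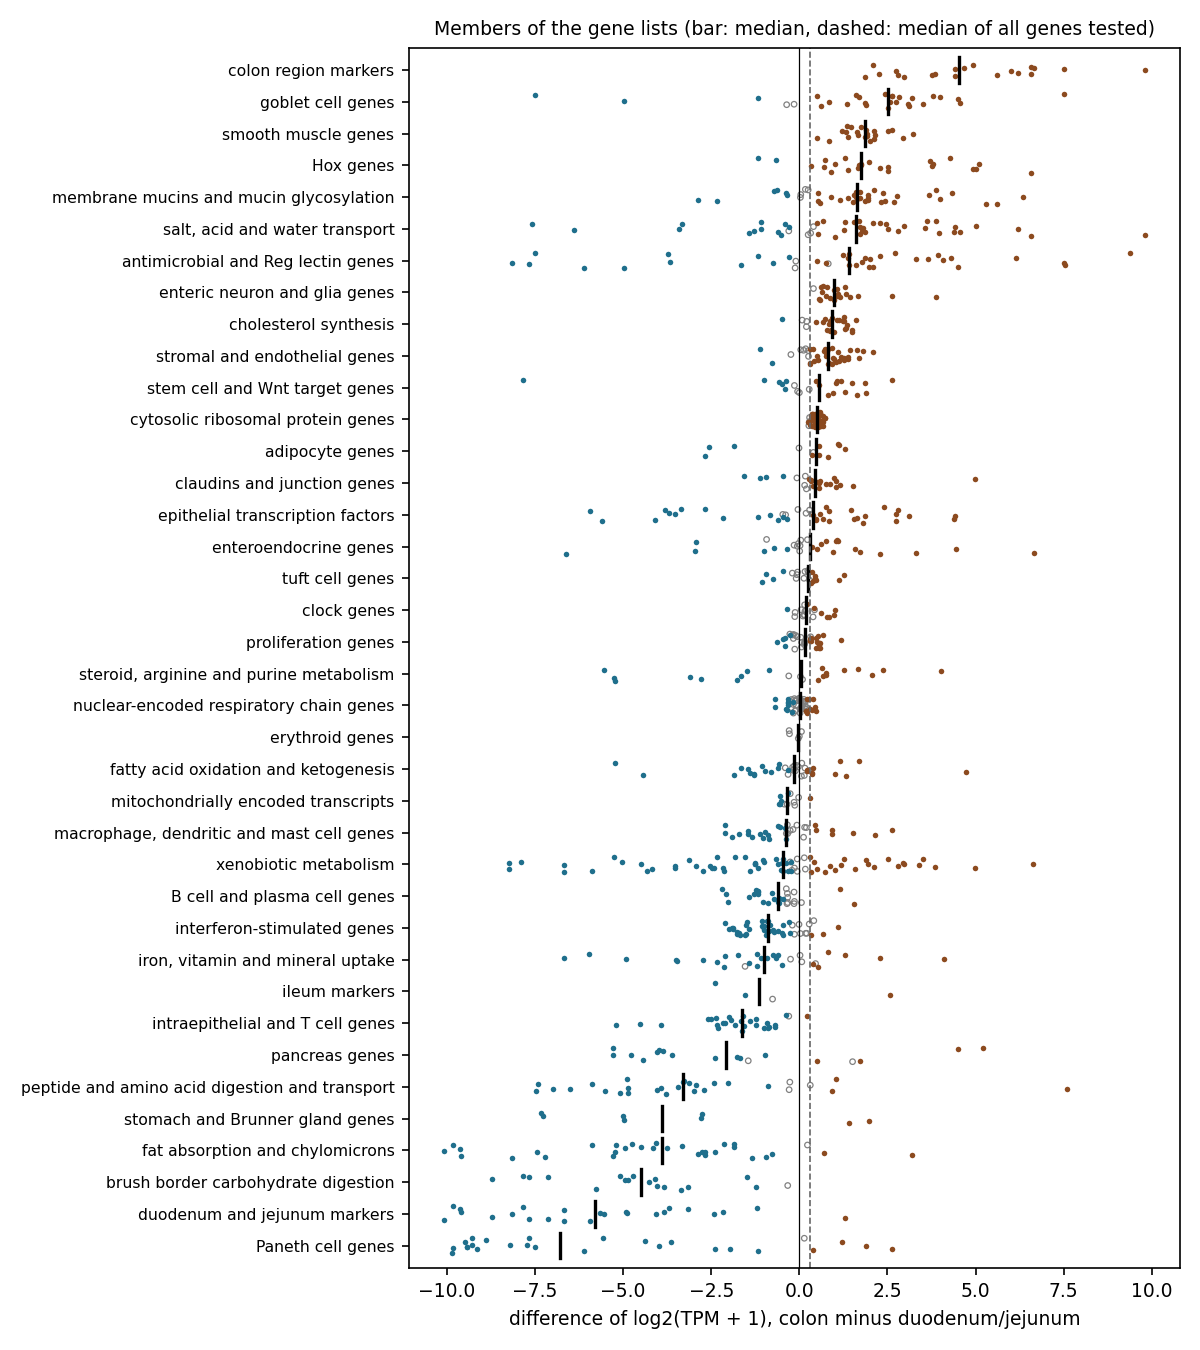
Colon minus duodenum/jejunum difference of log2(TPM + 1) for every tested gene of each list, with filled points for called genes, open points for genes not called, a bar at the list median and a dashed line at 0.30, the median of all genes tested. The carbohydrate, fat and Paneth cell lists lie to the duodenum/jejunum side (medians -4.49, -3.91 and -6.80), and those of goblet cells, salt transport and smooth muscle to the colon side (2.52, 1.61 and 1.86).

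Several transcription factors that pattern the gut also differed between the tissues. Gata4 and Gata5, factors of the proximal intestine, had medians of 91.1 and 27.97 TPM in duodenum/jejunum and of 0.505 and 0.510 TPM in colon. The forkhead factors Foxa2 and Foxd2 had medians of 18.7 and 21.02 TPM in colon and of 2.01 and 0.104 TPM in duodenum/jejunum. Of 39 epithelial transcription factors, 20 were higher in colon and 14 in duodenum/jejunum, with 12 and 10 at 2-fold (median 0.40). With RLE 15 and 16 were called, and 12 and 11 at 2-fold. As deposited, 51.5% of all genes were higher in colon and 15.8% in duodenum/jejunum, so the count of 20 was near the share of all genes. The count of 14 was above its share, and so were the 2-fold counts of 12 and 10, against 12.5% and 7.05% of all genes. Cdx1 and Cdx2, the intestinal caudal factors, were present in both tissues and were higher in colon by 1.80 and 0.67 (adjusted p = 2.5e-07 and 0.00016). The paralogues Hnf4a and Hnf4g, nuclear receptors of enterocytes, did not run in parallel. Hnf4a had medians of 264.6 TPM in colon and 257.9 TPM in duodenum/jejunum and was not called (0.19, adjusted p = 0.0964; called at 0.25 without mouse 1), whereas Hnf4g was higher in duodenum/jejunum by 3.52 on the log2 scale (SE 0.09, adjusted p = 5.4e-10). Pdx1, a duodenal and pancreatic factor, ranged from 1.06 to 13.3 TPM in duodenum/jejunum and did not pass 0.454 TPM in colon.

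Hox genes, which give position along the body axis, were mostly higher in colon. Of 25 tested, 23 were higher in colon, 19 of them at least 2-fold, and 2 were higher in duodenum/jejunum (1 without mouse 2). Of the 16 genes of paralogue groups 9 to 13, 7 were below the filter. The 9 that were tested differed by 1.70 to 6.57, and none had a mean above 0.626 TPM in duodenum/jejunum, so they passed the filter through their colon values and their direction was set by it. Hoxb13 (chromosome 11, 96194316-96197447) ranged from 77.97 to 151.7 TPM in colon and from 0.0511 to 0.413 TPM in duodenum/jejunum (6.57, SE 0.12, adjusted p = 8.1e-11). Hoxa13 and Hoxd13 had medians of 29.1 and 12.9 TPM in colon and were listed at 0 in most duodenum/jejunum libraries. Of the 16 tested genes of groups 1 to 8, 14 were higher in colon and 2 in duodenum/jejunum, and Hoxa7 was the highest of these at 3.78. The 2 were both of the tested genes of the Hoxc cluster, Hoxc4 at -0.67 and Hoxc6 at -1.16, at levels of 1.17 to 2.86 TPM for Hoxc6 in duodenum/jejunum. Hoxc6 did not pass 0.584 TPM in colon, so its direction was set by the filter. Hoxc4 had a mean of 0.435 TPM in colon. Hoxa2, Hoxa4 and Hoxa6 had means of 0.722, 0.606 and 0.588 TPM in duodenum/jejunum. The filter could therefore favour the direction of these genes too.

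**Figure D4:**
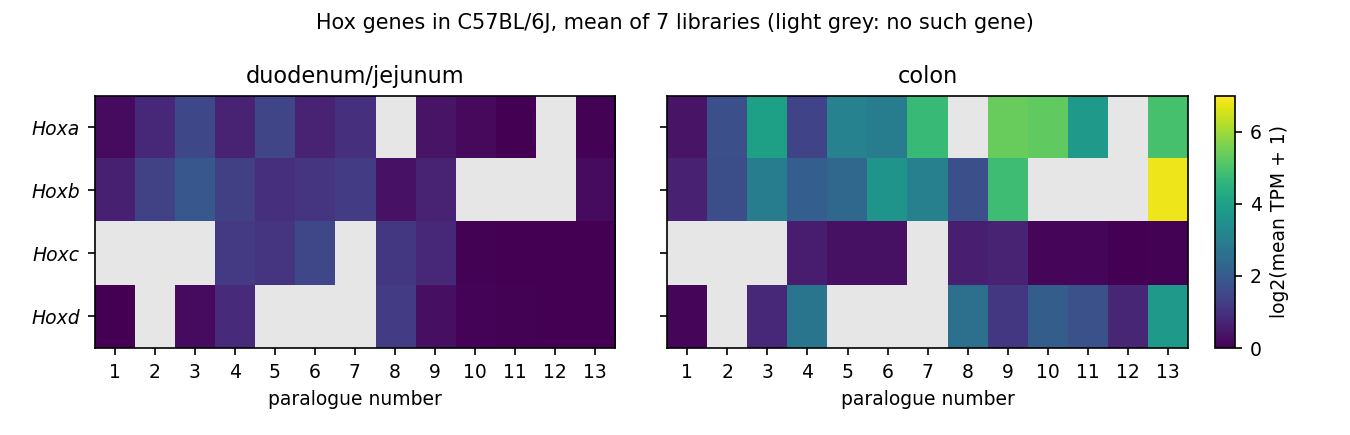
Mean level of the Hox genes over 7 libraries as log2(mean TPM + 1) (colour) in duodenum/jejunum and colon, by cluster (rows) and paralogue number (columns), with light grey where no such gene exists. In colon Hoxb13 is brightest and numbers 9 to 13 of the Hoxa cluster are bright, whereas the Hoxc row is dark in both tissues.

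Genes of lymphocytes and of antigen presentation were higher in duodenum/jejunum. Of 29 genes of intraepithelial and other T cells, 27 were higher there, 21 of them at least 2-fold, and 1 was higher in colon (0 without mouse 2; median -1.63). Gzma and Gzmb, granzymes of cytotoxic cells, had medians of 100.8 and 26.9 TPM in duodenum/jejunum and of 2.03 and 0.710 TPM in colon. Btnl2, a butyrophilin-like gene of epithelium, had a ratio of 32.68. Of 30 B cell and plasma cell genes, 19 were higher in duodenum/jejunum, 11 of them at least 2-fold, and 2 in colon (median -0.61). Igha and Jchain, the IgA heavy chain and the joining chain, had medians of 6342 and 1237 TPM in duodenum/jejunum and of 1152 and 258.4 TPM in colon. Pigr, the epithelial receptor that carries IgA into the lumen, was not called (-0.10, SE 0.08, adjusted p = 0.267), but was called at -0.46 (adjusted p = 0.00419) with RLE.

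Of 32 genes of macrophages, dendritic cells and mast cells, 16 were higher in duodenum/jejunum and 7 in colon, with 9 and 3 at 2-fold. The class II antigen genes H2-Ab1, H2-Aa and Cd74 were higher in duodenum/jejunum with ratios of 4.32, 3.89 and 4.28, while C1qa, a complement gene of macrophages, was not called (-0.37, adjusted p = 0.068) with all mice and was called at -0.44 to -0.46 without mouse 1, 2 or 3 and at -0.71 with RLE. Of 44 interferon-stimulated genes, 33 were higher in duodenum/jejunum, 18 of them at least 2-fold, and 3 in colon, 1 of them at least 2-fold (0 without mouse 3 or with RLE; median -0.90). Isg15, a ubiquitin-like protein, and Psmb8, an immunoproteasome subunit, had medians of 19.1 and 132.2 TPM in duodenum/jejunum and of 4.795 and 31.9 TPM in colon. Ly6g, a surface protein used as a neutrophil marker, was counted in the antimicrobial and Reg lectin list. It ranged from 52.9 to 103.5 TPM in colon and did not pass 0.249 TPM in duodenum/jejunum, and which cells made it was not tested.

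Genes of the gut wall were higher in colon. All 22 smooth muscle genes were called higher in colon, 20 of them at least 2-fold and 17 with RLE (median 1.86). Their summed level was 7138 to 8571 TPM in colon and 1071 to 2722 TPM in duodenum/jejunum. Actg2 (enteric actin), Cnn1 (calponin) and Des (desmin) had medians of 993.2, 674.7 and 535.4 TPM in colon and of 130.6, 76.3 and 99.7 TPM in duodenum/jejunum. Of 21 enteric neuron and glia genes, 20 were higher in colon, 10 of them at least 2-fold, and 0 in duodenum/jejunum (median 0.98). The 10 were 5 with RLE and 7 without mouse 2. Kit and Ano1, which mark the pacemaker cells of the muscle layer, had ratios of 6.72 and 15.92. Kit is also in the Paneth cell list and in the macrophage, dendritic and mast cell list, so it is not particular to pacemaker cells. The neuronal genes Calb2 and Prph ranged from 5.94 to 11.5 and from 3.78 to 8.59 TPM in colon. In duodenum/jejunum they ranged from 1.29 to 5.61 and from 0.668 to 5.08 TPM. Of 40 stromal and endothelial genes, 32 were higher in colon, 13 of them at least 2-fold and 7 with RLE, and 2 in duodenum/jejunum. Col3a1, a fibrillar collagen, had medians of 703 TPM in colon and 197.5 TPM in duodenum/jejunum, while Vwf, an endothelial gene, was not called (0.04, adjusted p = 0.794). These wall genes and the epithelial genes above differed between the same libraries, and the part of the wall in the epithelial differences was not tested.

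Genes of the pancreas and of Brunner's glands varied widely between the mice in duodenum/jejunum. Of 18 pancreas genes, 12 were higher in duodenum/jejunum, 11 of them at least 2-fold, and 3 were at least 2-fold higher in colon. The 11 were 7 without mouse 2 or 5 and 6 without mouse 4 or 6. The list also holds genes that the colon itself expresses, such as Klk1, a kallikrein, at 1928 to 2645 TPM in colon. Ctrb1 (chymotrypsinogen) was 0.0944 TPM in mouse 1 and 0.184 TPM in mouse 3 and between 57.3 and 1115 TPM in the duodenum/jejunum of the other 5 mice. Of 8 genes of stomach and Brunner's glands, 6 were at least 2-fold higher in duodenum/jejunum, and 3 when mouse 2, 4, 5, 6 or 7 was left out. Genes low in mouse 3, or in mice 1 and 3, then missed the filter. Examples were the mucin Muc6 (29.8 TPM in mouse 1 and 0.958 TPM in mouse 3) and the trefoil peptide Tff1 (0 and 0.272 TPM). The summed level of the list was 21.7 TPM in mouse 3, 250.3 TPM in mouse 1 and 1970 to 3273 TPM in the other 5 duodenum/jejunum libraries.

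The regional difference depended on the strain for a minority of genes. A fit over the 26 colon and duodenum/jejunum libraries of both strains tested whether the colon minus duodenum/jejunum difference was the same in C57BL/6J as in the 6 BALB/cJ mice. Of 16694 genes tested, 1242 (7.44%) differed between the strains, 380 (2.28%) with a difference further towards colon in C57BL/6J and 862 (5.16%) with one further towards duodenum/jejunum in C57BL/6J. Defa2 averaged 1164 TPM in C57BL/6J duodenum/jejunum and was at or near 0 in BALB/cJ, at no more than 0.00378 TPM (difference between strains -10.10, adjusted p = 2.4e-13). Defa20 averaged 5338 TPM in C57BL/6J and 7.05 TPM in BALB/cJ duodenum/jejunum. Mptx1 was higher in colon in both strains, with means of 2832 against 3.12 TPM in C57BL/6J and of 547.7 against 74.1 TPM in BALB/cJ (6.48, adjusted p = 1.6e-10). Mptx2 had means of 0.866 TPM in colon and 398.5 TPM in duodenum/jejunum in C57BL/6J, and of 44.1 and 45.2 TPM in BALB/cJ.

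Nxpe5, of a family of secreted neurexophilin-like proteins, averaged 135.7 TPM in BALB/cJ colon and 1.52 TPM in C57BL/6J colon, while its relative Nxpe4 averaged 1.52 and 48.5 TPM, so the pair was reversed between strains. Lpo (lactoperoxidase) averaged 336.2 TPM in BALB/cJ colon and 13.7 TPM in C57BL/6J colon. St3gal4, a sialyltransferase, averaged 1163 TPM in C57BL/6J duodenum/jejunum and 6.63 TPM in BALB/cJ duodenum/jejunum. Igha averaged 5645 TPM in C57BL/6J and 1775 TPM in BALB/cJ duodenum/jejunum, and 1250 and 1364 TPM in colon (difference between strains -1.81, adjusted p = 0.00078). H2-Ab1 averaged 427 TPM in C57BL/6J and 130.9 TPM in BALB/cJ duodenum/jejunum, and 98.9 and 84.1 TPM in colon (-1.46, adjusted p = 0.0006). For Isg15 the larger contrast between strains was in colon, where it averaged 40.8 TPM in BALB/cJ and did not pass 6.11 TPM in C57BL/6J (-2.32, adjusted p = 0.00024). Since reads are matched to one reference, sequence differences between strains could affect single genes, and this was not tested.

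**Figure D5:**
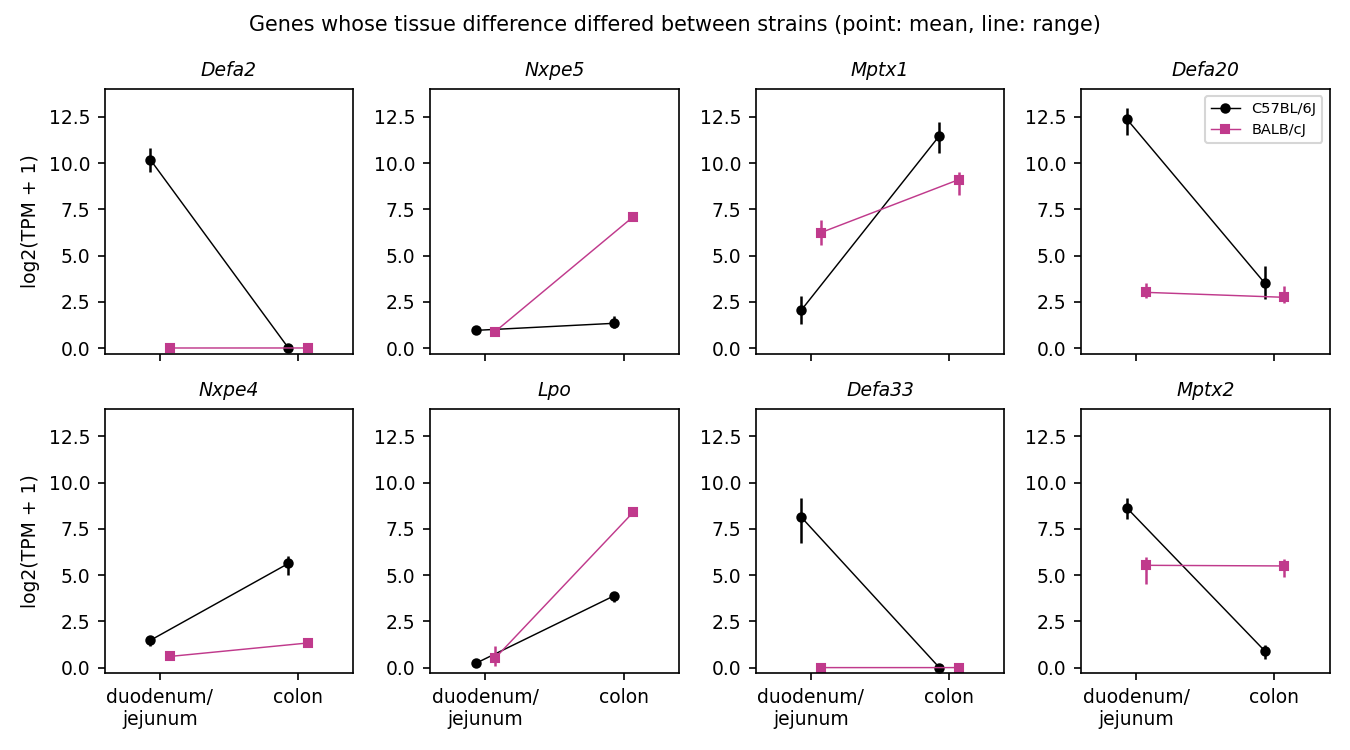
Mean (point) and range (line) of 8 genes as log2(TPM + 1) in duodenum/jejunum and colon of 7 C57BL/6J (circles) and 6 BALB/cJ (squares) mice. Defa2, Defa20 and Defa33 are high in C57BL/6J duodenum/jejunum and low in the other 3 groups, Nxpe5 and Lpo are highest in BALB/cJ colon, and the BALB/cJ means of Mptx2 lie close together (44.1 and 45.2 TPM).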

How the data were processed

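Total RNA was extracted with PureLink kits and made into ribosomal RNA-depleted TruSeq total RNA libraries, per the labels' protocols. Transcripts were quantified with kallisto 0.44.0 on GRCm38, per the submitters' processing notes, and neither the labels nor these notes name the transcript annotation. The authors deposited 1 table per tissue in log2(TPM + 1). Each library summed to 979558 to 996230 TPM, so the tables carried no scaling between them, but TPM keeps no sequencing depth and the counting error of low values is unknown. Each table has 34600 entries, of which 26 with names turned into dates were left out. Of those kept, 672 stood under a transcript ID rather than a gene name. Atp12a, Gzma and Gzmb had no entry by symbol, and each was taken from 1 such entry. There were 0 columns of other samples and 0 identical library pairs.

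Values were converted to TPM for display. Differences were fitted on log2(TPM + 1) with limma 3.58.1 (trend) in R 4.3.3, with the mouse as a block, for genes that reached 1 TPM in 6 or more of 14 libraries, and p-values were adjusted by Benjamini-Hochberg over all genes. The strain comparison was an interaction term over 26 libraries. Log2 differences understate the change of low genes, and folds are ratios of mean TPM. The mouse number pairs libraries because the labels give it as the mouse's identity. The deviations of same-mouse libraries correlated at 0.063 to 0.281 (median 0.117, 7 pairs) and those of different mice at -0.288 to 0.118 (median -0.027, 42 pairs). Named genes were the 8 largest per direction with a mean of at least 5 TPM in 1 tissue, up to 4 per list and direction and up to 2 uncalled per list, and some genes are not reported here. Genes named for mouse 2, mouse 3, the Y-linked check and colon levels of single mice, and St3gal4, were chosen after their values were seen. Members and lists were chosen with earlier results of these data known. Alternatives were the pseudocount, the filter, RLE and TMM size factors, no block, and each C57BL/6J mouse left out. RLE without mouse 2 was added after seeing the data. Figures and tables used Python 3.11.15, pandas 2.3.3, numpy 2.4.6 and matplotlib 3.10.9. Coordinates are GENCODE M21 on GRCm38. The scripts were tested on simulated data.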

Additional observations from a re-analysis of the deposited data

Results flagged for a closer look

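Values that stood apart from the other 6 mice of their group were found in 28 of 309 groups of 1 gene and 1 tissue. The measure was taken on log2(TPM + 1), while the values below are printed in TPM. It was the gap from the highest or lowest mouse to the nearest other mouse, divided by the range of the group. It was set against Dixon's 95% critical value, which chance passes in about 1 in 20 groups. Of the 28, 19 came from the duodenum/jejunum library of mouse 2. It had the highest values of the bile acid genes Fabp6 (6111 TPM, group median 8.07), Slc10a2 (86.7 TPM, median 3.17), Fgf15, the ileal hormone that limits bile acid synthesis (10.1 TPM, median 0.791), and Slc51a and Slc51b (250.2 and 334 TPM, medians 131.3 and 124.3). It was also highest in Saa1 (358.6 TPM), Slc6a14 (28.9 TPM), Sval1, which is related to prolactin-inducible protein (6.00 TPM), Tff3 (4532 TPM), Cldn7 and Cldn8 (946.7 and 1.77 TPM) and the ribosomal protein gene Rps19 (2461 TPM, median 1061). It had the lowest values of Sis (1197 TPM), Slc2a2 (153.1 TPM), Slc5a1 (651.1 TPM), Galk1 (13.8 TPM), Gip (90.5 TPM), Cldn15 (262.1 TPM) and the replication gene Pcna (96.8 TPM).

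The remaining 9 came from other libraries. In duodenum/jejunum, mouse 3 was lowest in Tff2 (2.15 TPM) and in Muc6, a mucin of Brunner's glands (0.958 TPM, median 67.9), mouse 4 in Nxpe4 (1.21 TPM), mouse 5 in Cdx2 (43.3 TPM) and mouse 6 in Car4, a membrane carbonic anhydrase (81.4 TPM). In colon, mouse 7 was highest in the pancreatic enzymes Cpa1 (1.48 TPM) and Ctrb1 (3.29 TPM), mouse 4 lowest in Hoxd13 (7.65 TPM) and mouse 6 lowest in Trpm5 (7.18 TPM).

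The tissue difference itself differed between the strains, by the interaction test, for 37 of the genes printed. Values are the C57BL/6J difference minus the BALB/cJ difference on the log2 scale. The alpha-defensin group gave -10.10 for Defa2, -9.48 for Defa21, -8.63 for Defa20, -7.86 for Defa33, -1.84 for Defa30, -1.30 for Defa23 and -1.53 for AY761184. Among other secreted defence genes it was 6.48 for Mptx1, -7.70 for Mptx2, -4.30 for Lpo, -2.27 for Itln1 and -0.73 for Zg16. Nxpe5 gave -5.84, Nxpe4 3.41, St3gal4 -4.03, B3gnt6 0.57 and Tgm3, a transglutaminase, 1.06. The immune genes gave -1.81 for Igha, -2.35 for Igkc, -1.82 for Jchain, -1.36 for Cd74, -1.39 for H2-Aa, -1.46 for H2-Ab1, -1.09 for C1qa, -2.32 for Isg15 and -1.12 for Ifi27l2b. Metabolic genes gave -1.38 for Adh6a, -1.79 for Cyp2c55, 1.39 for the steroid dehydrogenase Hsd3b3, -1.01 for Cyp51 and -0.96 for Fdft1. The hormones Gcg and Insl5 gave -0.61 and -0.78, the transcription factors Foxd2, Hoxd13 and Xbp1 gave 0.38, -0.66 and -0.42, and Col3a1 gave -0.90. For Foxd2 the adjusted p was 0.0426 with all mice and 0.0603 without mouse 2, so that call was lost.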

How the results depend on the processing

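Of 167 genes printed with a test, 149 were called, and 146 of these kept their direction and call under each of the 18 alternatives in which they could be fitted. The exceptions were Nxpe5 (0.18 with RLE, 0.18 with TMM, 0.15 with RLE and without mouse 2), Slc40a1 (0.94, 0.94 and 1.16) and Zg16 (0.14, 0.14 and 0.15). The uncalled Slc39a4 changed from 0.02 to -0.33, -0.33 and -0.32 under these settings, and the uncalled Xbp1 from 0.06 to -0.29 in all 3. The genes higher in colon numbered 8126 as deposited, 4560 with RLE, 4567 with TMM and 4298 with RLE and without mouse 2. Those higher in duodenum/jejunum numbered 2486, 4643, 4634 and 4332. At 2-fold the colon count of 1978 was 1231, 1230 and 1221, and 1091 with a pseudocount of 5. Leaving out each mouse gave 9807 to 10489 genes called, 7462 to 8179 higher in colon and 2261 to 2524 higher in duodenum/jejunum, with 1864 to 2082 and 1068 to 1145 at 2-fold. When each C57BL/6J mouse was left out, the strain difference counts were 972 to 1242 in all. They were 281 to 424 further towards colon and 690 to 914 further towards duodenum/jejunum in C57BL/6J. The BALB/cJ mice were not left out in turn. With no replicate block, that is, without the pairing by mouse, 10880 genes were called, 8373 higher in colon and 2507 higher in duodenum/jejunum, and 1222 differed between strains.

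Of the 18 genes not called, 9 were called higher in duodenum/jejunum with RLE, namely Slc39a4, Xbp1, C1qa, Cldn7, Galk1, Nts, Pcna, Pigr and Tff3. Depth is not known from TPM, so levels under about 1 TPM carry an unknown counting error. Each mouse gave 1 library per tissue, and any batch by tissue cannot be told apart from the tissue.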

Other observations

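In several general gene groups the counts of genes called between colon and duodenum/jejunum of C57BL/6J changed with the scaling. The shares over all genes changed too, from 51.5% higher in colon and 15.8% in duodenum/jejunum as deposited to 29% and 29.5% with RLE. Of 51 cytosolic ribosomal protein genes, 48 were higher in colon and 0 in duodenum/jejunum as deposited, none at 2-fold (median 0.49), and 4 were higher in colon with RLE (median 0.14). Of 48 nuclear-encoded respiratory chain genes, 10 were higher in each tissue as deposited (median 0.02), and with RLE 27 were higher in duodenum/jejunum and 0 in colon (median -0.33). Of 35 proliferation genes, 16 were higher in colon and 5 in duodenum/jejunum (median 0.15), and with RLE 2 and 13 (median -0.18). Plk1, a mitotic kinase, was higher in colon by 1.18 (adjusted p = 1e-05) and by 0.84 with RLE, while Pcna was not called (-0.17, adjusted p = 0.111) with all mice and was called at -0.24 (adjusted p = 0.0248) without mouse 2 and at -0.52 with RLE. Of 12 mitochondrially encoded transcripts, 1 was higher in colon (0 without mouse 2) and 5 in duodenum/jejunum, and with RLE 0 and 9. Of 5 erythroid genes, 0 were called as deposited and 2 were called higher in duodenum/jejunum with RLE. Hbb-bs, a haemoglobin gene, ranged from 30.9 to 87.2 TPM in colon and from 42.7 to 83.9 TPM in duodenum/jejunum. Of 18 clock genes, 7 were higher in colon and 1 in duodenum/jejunum (0 without mouse 2), and with RLE 5 and 3. Ciart, a repressor of the circadian clock, ranged from 1.46 to 15.5 TPM in colon and from 1.27 to 3.73 TPM in duodenum/jejunum (1.02, SE 0.24, adjusted p = 0.00401).

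Within the colon, mice 1 and 6 had low values of some absorptive genes and the highest values of others. Slc26a3 stood at 562.8 and 647 TPM in these mice against 407.5 to 512.2 TPM in the other 5. Aqp8 stood at 335.2 and 399.2 TPM against 247.3 to 314.6 TPM. The low genes were as follows. Car1 stood at 2513 and 2269 TPM in these mice and at 3639 to 5725 TPM in the other 5. Slc10a2 stood at 9.46 and 12.5 TPM against 42.3 to 86.9 TPM, Slc51a at 5.58 and 6.11 TPM against 29.5 to 49.6 TPM, and S100g at 38.9 and 19.4 TPM against 191 to 390 TPM. The colon of mouse 4 had Reg3b at 2902 TPM and Reg3g at 426 TPM, against 171 to 723 TPM and 24 to 104 TPM in the other 6. These genes were singled out after their values were seen.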
